A study of Mus musculus with 3 samples.

Results

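Genes for the clearance of apoptotic cells were followed in stromal cells of the mouse lymph node (LN). They are 7 of the 51912 genes in the count files and were picked by symbol: Mfge8, Gas6 and Pros1, which encode secreted bridging molecules, and Axl, Mertk, Tyro3 and Timd4, which encode receptors. All 7 symbols were found, each in its own row. The cells came from C57BL/6 mice of the genotype CXCL13-TdTomato+, whose transgene puts Cre and the red reporter TdTomato under Cxcl13 control and so marks stroma of the B cell follicle, and all libraries were sorted as live Podoplanin+ TdTomato+ cells, with CD31 and CD45 excluded in the labels. Mice received an antigen held in an immune complex (IC). The 2-IC condition had IC injections 7 days and 24 hours before analysis and 2 libraries, and the 1-IC condition had 1 injection 24 hours before and 1 library. The titles of the 2-IC libraries give the same injections but end in unlike tags, Biotin24h for replicate 1 and Biotin7d for replicate 2. The sources used here do not explain the tags, so the 2 libraries may differ in more than the pool of mice. No uninjected library was analysed here. LNs of several mice were pooled before sorting and the sources do not tie mice to libraries, so a library is the replicate. The p-values set a difference between groups of cells of the same libraries against how far such differences varied between libraries. That spread was estimated in part from all genes, and differences in level between pools were taken out by the fit. The ages of the mice are not given in the sources used here.

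Dying cells expose the lipid phosphatidylserine. MFGE8 binds this lipid and the integrin chain alpha v on a phagocyte, while GAS6 links the lipid to the receptor tyrosine kinases TYRO3, AXL and MERTK. Protein S, the product of Pros1, links it to TYRO3 and MERTK. TIM-4, the product of Timd4, binds phosphatidylserine itself and is known from resident macrophages. In B cell follicles, follicular dendritic cells (FDCs) are a known source of MFGE8, and tingible body macrophages take up apoptotic germinal centre B cells.

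Barcodes with at least 200 genes and at most 10% mitochondrial UMIs (unique molecular identifiers, counts of single captured transcripts) were split into 3 compartments. Cr2-positive barcodes held at least 1 UMI of Cr2, the complement receptor that marks FDCs and also B cells. Other stroma held none of Cr2, and both groups held no UMI of Tyrobp, a signalling adaptor of myeloid and NK cells, nor of 13 genes of blood, endothelial and lymphoid cells. Tyrobp-positive barcodes held at least 1 UMI of Tyrobp and none of Cr2, without the filter on the 13 genes. There were 133, 35 and 47 Cr2-positive barcodes in replicates 1 and 2 of the 2-IC condition and in the 1-IC library, the order used for all values below. Other stroma had 1316, 339 and 258 barcodes, and the Tyrobp-positive compartment had 202, 44 and 45. In all, 215, 1913 and 291 of 5486 deposited barcodes fell into the compartments, and the rest did not pass the limits on quality, held a contaminant UMI or held both Cr2 and Tyrobp.

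Library totals ran from 3766526 to 20607903 UMIs, and the median of a compartment from 3323 to 16274 UMIs per barcode. The 7 FDC markers other than Cr2 were Fcer2a, Fcgr2b, Coch, Clu, Sox9, Madcam1 and Cxcl13. They summed to between 32122 and 79327 CPM (UMIs scaled to a total of 1000000 per sum) in Cr2-positive barcodes and to between 8052 and 17683 CPM in other stroma. The 8 macrophage and myeloid markers other than Tyrobp summed to between 1255 and 4178 CPM in Tyrobp-positive barcodes against 103 to 276 CPM in other stroma. The Tyrobp-positive barcodes also carried 441 to 2191 CPM of B cell markers, 4350.2 to 7725 CPM of reticular cell markers and 6561 to 8814 CPM of FDC markers, so they are called by their gate and not by a cell type. In Cr2-positive barcodes the 8 myeloid markers other than Tyrobp summed to 392, 290.2 and 394 CPM. That was above other stroma in each library, which had 203, 103 and 276 CPM. In the Cr2-positive barcodes 6, 5 and 4 of these markers were seen, and Adgre1 and Itgam were at 0 in each library. The 2-IC libraries shared 76 cell barcodes, 41 and 28 of them in the compartments, and the smaller copy had a median of 1.90% of the UMIs of the larger. The part of these copies in the results was measured by leaving them out, which changed no call on a member.

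Mfge8 (ENSMUSG00000030605) lies on the minus strand of GRCm38 chr7:79133768-79149060 and Gas6 (ENSMUSG00000031451) on the minus strand of chr8:13465374-13494490. A stretch of 3100 bases of Gas6 overlaps Tmem255b on the other strand, which had 0 UMIs in all 3 compartments. Pros1 (ENSMUSG00000022912) lies on the plus strand of chr16:62854307-62929346, Axl (ENSMUSG00000002602) on the minus strand of chr7:25757273-25788705 and Tyro3 (ENSMUSG00000027298) on the plus strand of chr2:119797733-119818104. Mertk (ENSMUSG00000014361) lies on the plus strand of chr2:128698956-128802894 and overlaps the antisense gene Gm14011. Timd4 (ENSMUSG00000055546) lies on the plus strand of chr11:46810800-46844332. The counts cover whole genes from 3′ tags.

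The 250 bases before the RefSeq start are shown for 3 members with unlike patterns in the results below: Mfge8, highest in Cr2-positive barcodes, Gas6, higher in other stroma, and Timd4, which did not pass the test between the compartments. Capitals mark the GC box GGGCGG or the CCAAT box CCAAT on either strand. They lie on GRCm38.p6 at chr7:79149061-79149310 (minus strand), chr8:13494536-13494785 (minus strand) and chr11:46810549-46810798 (plus strand), in the order given, and all 7 members matched a RefSeq entry.
Mfge8: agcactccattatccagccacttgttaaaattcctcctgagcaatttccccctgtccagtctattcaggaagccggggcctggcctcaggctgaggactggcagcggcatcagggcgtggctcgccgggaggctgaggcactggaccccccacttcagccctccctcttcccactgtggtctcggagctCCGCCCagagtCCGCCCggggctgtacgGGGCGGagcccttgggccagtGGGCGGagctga
Gas6: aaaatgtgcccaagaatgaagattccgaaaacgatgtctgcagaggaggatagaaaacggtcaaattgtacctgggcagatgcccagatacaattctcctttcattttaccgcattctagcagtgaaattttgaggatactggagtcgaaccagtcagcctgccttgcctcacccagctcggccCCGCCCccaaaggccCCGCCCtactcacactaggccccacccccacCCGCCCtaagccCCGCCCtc
Timd4: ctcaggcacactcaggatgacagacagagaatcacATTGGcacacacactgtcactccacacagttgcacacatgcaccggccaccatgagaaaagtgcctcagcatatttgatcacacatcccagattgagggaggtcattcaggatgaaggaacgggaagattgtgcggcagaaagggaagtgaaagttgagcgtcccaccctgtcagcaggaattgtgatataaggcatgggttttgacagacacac
Mfge8 and Gas6 each held 4 GC boxes close to the start, and their levels ran in opposite directions. The other members held GC boxes too, 5 in Pros1, 1 in Axl, 3 in Mertk and 3 in Tyro3, and Timd4 held none and 1 CCAAT box. The GC box was found in 32.7% of 32851 promoters of this length, the CCAAT box in 33.8% and the TATA box TATAAA, which no member held, in 12.4%.

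Mfge8 was the member with the clearest place. Its level was 14725, 9548 and 12968 CPM in Cr2-positive barcodes against 3937, 2304 and 3641 CPM in other stroma. Cr2-positive barcodes were above other stroma in each library, 3.74, 4.14 and 3.56 times, and the groups did not overlap. The log2 fold change was 1.89 ± 0.19 (SE, n = 3 libraries, adjusted p = 1.905e-06, edgeR quasi-likelihood test with Benjamini-Hochberg adjustment over 9056 genes). Here and below, the SE of a log2 fold change is its size divided by the square root of the F statistic of the fit. It is not the spread of the ratios in single libraries. Among all genes tested 8.97% were called higher and 9.29% lower in Cr2-positive barcodes at an adjusted p under 0.05. Of the 7 members 5 passed the filter on low counts and could be tested here, of which Mfge8 and Axl were called higher, and Gas6 and Pros1 lower. Mertk and Tyro3 did not pass it. The groups differ in cell type by construction, so many genes are called.

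Nearly every Cr2-positive barcode carried Mfge8. With each barcode thinned to 1000 UMIs, which left out 8, 0 and 2 shallower ones, Mfge8 was seen in 92.0%, 88.6% and 100% of them. In the other stroma it was seen in 76.8%, 67.3% and 72.0% (72, 18 and 15 left out), and in B cell barcodes, which should lack it, in 19.7%, 16.0% and 8.16% (10, 2 and 3 left out). Among the gates of the other stroma described below, the Madcam1 gate stood at 95.8%, 92.3% and 100% with the same thinning, no lower than the Cr2-positive barcodes, and the Tnfsf11 and Fmod Ccl21a gates had means of 89.1% ± 7.1 (SD, n = 3) and 88.4% ± 7.5. Unthinned, the mean shares in Cr2-positive, other stromal and B cell barcodes were 99.5% ± 0.87 (SD, n = 3), 94.2% ± 1.1 and 42.5% ± 22.9. The median depth was 5192, 10091 and 5264 UMIs in Cr2-positive and 3823, 6253 and 3144 UMIs in B cell barcodes. The B cell barcodes, gated on at least 2 UMIs of Cd79a and Cd79b with no Tyrobp and under 0.2% of UMIs from 4 matrix genes, had 909.8, 763 and 765 CPM of Mfge8. Those barcodes also carried 2835 to 5408 CPM of the FDC markers other than Cr2. Of these markers Fcer2a and Fcgr2b are also genes of B cells, and Cxcl13 alone was at 1322 to 3072 CPM. The source of the Mfge8 in the B cell barcodes was not tested. These barcodes were not gated against Cr2, so their level serves as a reference and is not taken as background RNA alone. The other stroma lay above it in each library.

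Within the Cr2-positive barcodes the spread of Mfge8 differed between libraries. In the 1-IC library the 10th percentile over barcodes was 9090.1 CPM and the median was 12745 CPM. In the 2-IC libraries the 10th percentile was 1205 and 777 CPM, with medians of 15541 and 10551 CPM, so these libraries held Cr2-positive barcodes with little Mfge8. Barcodes with a single Cr2 UMI had 6250.5, 6338 and 11341 CPM of Mfge8, and those with 5 or more had 20629.6, 10705 and 13899 CPM. Cr2-positive barcodes with under 1% of UMIs from the nuclear RNA Malat1 (29, 10 and 15 barcodes) had 20185, 19765 and 13743 CPM, against 13828, 7798 and 12833 CPM in the rest.

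**Figure D1:**
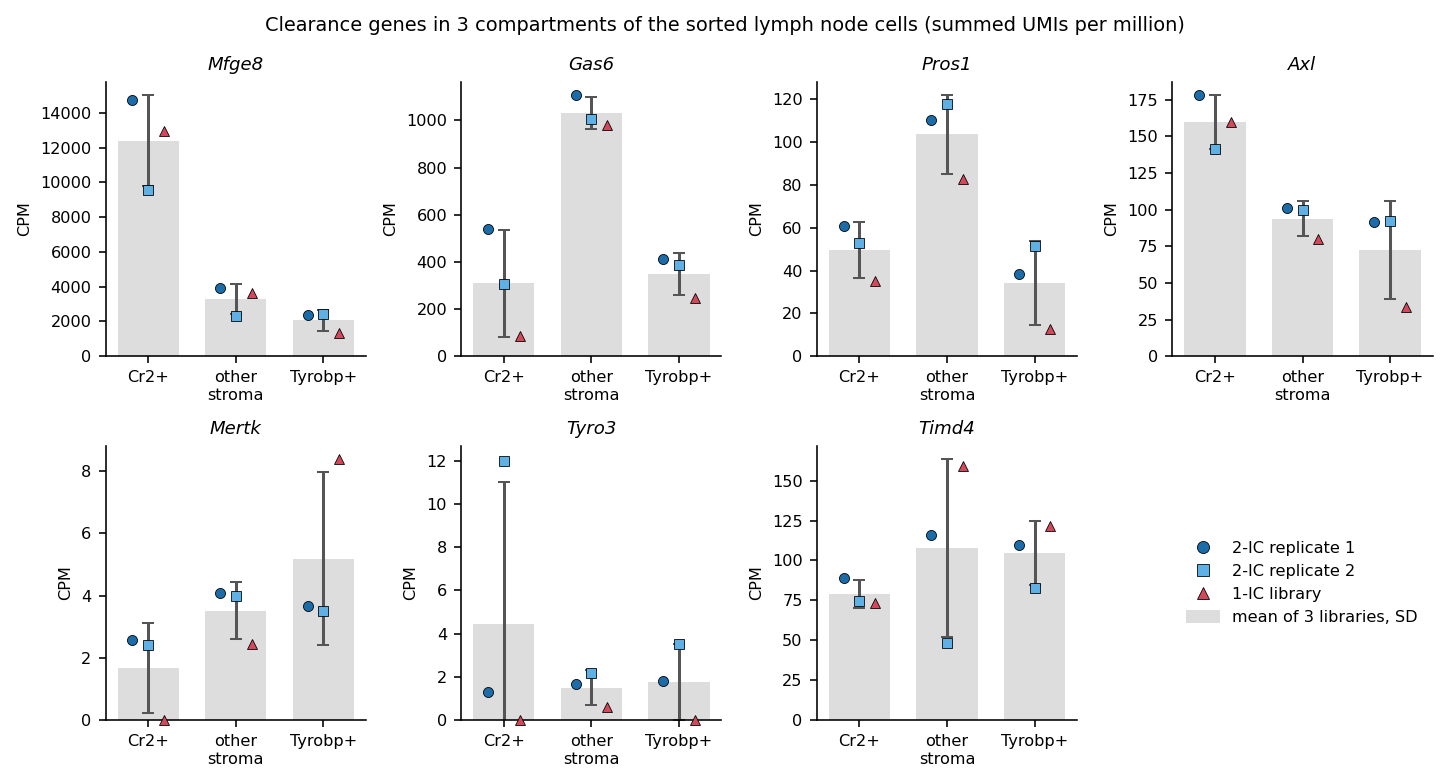
Levels of the 7 members in CPM of summed UMIs (vertical axes, linear, from 0, 1 panel per gene) in Cr2-positive (Cr2+), other stromal and Tyrobp-positive (Tyrobp+) barcodes. Points are the 3 libraries, grey bars their mean and lines the SD, which runs below 0 and is clipped there for Tyro3 in Cr2-positive barcodes. Mfge8 and Axl were highest in Cr2-positive barcodes, Gas6 and Pros1 in other stroma, and Mertk and Tyro3 stayed at or below 12.0 CPM.

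Gas6 ran the other way. It was at 540.4, 305 and 86.5 CPM in Cr2-positive barcodes and at 1109, 1007 and 980.3 CPM in other stroma. The other stroma was above in each library, 2.05, 3.31 and 11.3 times, with no overlap. The log2 fold change was -1.91 ± 0.28 (SE, adjusted p = 0.0001127, edgeR). The log2 ratios in single libraries were -1.04, -1.72 and -3.50, a wider spread than this SE shows. The size of the difference rested in part on the 1-IC library, since without it the log2 fold change was -1.37 (adjusted p = 3.714e-06, edgeR).

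What Gas6 there was in Cr2-positive barcodes lay with those of little Cr2. Barcodes with a single Cr2 UMI had 1190.4, 674 and 240.0 CPM, those with 2 to 4 had 657, 491 and 119.9 CPM, and those with 5 or more had 41.3, 165 and 21.4 CPM. The level was lower at each step in each library, but the steps held few barcodes. There were 58, 8 and 11 with a single Cr2 UMI, 25, 6 and 12 with 2 to 4, and 50, 21 and 24 with 5 or more. Over all libraries these 3 steps held 402, 103 and 67 Gas6 UMIs. They also differed in depth, whose part was not tested. In the B cell barcodes Gas6 was at 31.2, 9.74 and 1.75 CPM. Cr2-positive barcodes low in Malat1 had 13, 0 and 0 Gas6 UMIs, and with at least 2 Cr2 UMIs required the log2 fold change was -2.93 (adjusted p = 1.108e-06, edgeR). As a ratio of UMIs within a sum, there were 27.2, 31.3 and 150.0 Mfge8 UMIs per Gas6 UMI in Cr2-positive barcodes and 3.55, 2.29 and 3.71 in other stroma.

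Pros1, which encodes protein S, an anticoagulant and the other vitamin K-dependent ligand, had the direction of Gas6. It was at 60.8, 52.8 and 35.2 CPM in Cr2-positive barcodes against 110.2, 118 and 82.7 CPM in other stroma, which did not overlap. The log2 fold change was -1.08 ± 0.20 (SE, adjusted p = 0.001076, edgeR). Barcodes with a single Cr2 UMI had 108, 110.3 and 90.0 CPM of Pros1, at the level of other stroma, while those with 5 or more had 31.0, 42.2 and 21.4 CPM. These levels rest on 45 and 28 Pros1 UMIs over all libraries. Those with 2 to 4 had a mean of 27.7 ± 16.1 CPM (SD, n = 3) on 7 UMIs, against 31.5 ± 10.4 CPM with 5 or more. The mean thus did not fall at each step. The call on Pros1 was lost without the library block (-1.06, adjusted p = 0.06322, edgeR) and with each barcode thinned to 1000 UMIs (-1.40, adjusted p = 0.07747, edgeR).

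Axl, a receptor for GAS6, was at 178, 142 and 160.1 CPM in Cr2-positive barcodes against 101, 99.9 and 80.2 CPM in other stroma, again without overlap. The log2 fold change was 0.73 ± 0.19 (SE, adjusted p = 0.01203, edgeR). This call depended on the gate: without the filter on 13 contaminant genes the log2 fold change was -0.030 (adjusted p = 0.9453, edgeR). That change lets in barcodes with a UMI of any of these genes, those of B cells included, in both stromal compartments. Which of them moved the level was not tested. The 298, 98 and 64 Cr2-positive barcodes that the filter removed had 64.4, 64.1 and 27.8 CPM of Axl. The call was also lost without 2-IC replicate 1 (0.73, adjusted p = 0.1242, edgeR), the library with most barcodes, without the library block (0.74, adjusted p = 0.1887, edgeR) and at the equal depth of 1000 UMIs per barcode (0.84, adjusted p = 0.2048, edgeR).

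Receptor and ligand were also counted in the same barcodes at 1000 UMIs each. Gas6 was seen in 23.2%, 20.0% and 2.22% of Cr2-positive barcodes and Axl in 10.4%, 14.3% and 20.0%, against 1.42%, 1.06% and 0.680% with Axl among B cell barcodes. Both were seen in 1 of 125, 0 of 35 and 1 of 45 Cr2-positive barcodes and in 63 of 1244, 9 of 321 and 3 of 243 other stromal barcodes. With single shares this low few joint detections can occur, and whether the genes avoid or favour the same cells was not tested.

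Mertk and Tyro3 were barely detected. Mertk, which encodes the receptor known from tingible body macrophages, had 2, 1 and 0 UMIs in Cr2-positive barcodes, 29, 20 and 4 in other stroma and 6, 3 and 2 in Tyrobp-positive barcodes. Tyro3 had 1, 5 and 0, then 12, 11 and 1, then 3, 3 and 0. For Mertk that is 2.59, 2.40 and 0 CPM in Cr2-positive barcodes, with 95% exact Poisson intervals of 0.313 to 9.34, 0.0607 to 13.4 and 0 to 11.8 CPM for counting error only. A difference between compartments was not detectable for these receptors at this depth, and no Mertk UMI was found in the B cell barcodes.

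Timd4 was found across the stroma. It was at 89.2, 74.4 and 73.6 CPM in Cr2-positive barcodes, 116, 48.1 and 159 CPM in other stroma and 109, 82.9 and 122 CPM in Tyrobp-positive barcodes, so all 3 compartments overlapped. Neither difference passed the test: the log2 fold change was -0.34 ± 0.24 for Cr2-positive against other stroma (adjusted p = 0.4008, edgeR) and 0.16 ± 0.22 for Tyrobp-positive against other stroma (adjusted p = 0.6338, edgeR). B cell barcodes had 8.11, 2.16 and 31.4 CPM, below the other stroma in each library.

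The UMIs of Timd4 came from many stromal barcodes, 328, 80 and 83 of the other stroma, with at most 23, 26 and 14 UMIs in a barcode. The 88, 30 and 42 stromal barcodes, Cr2-positive and other stroma together, with at least 3 Timd4 UMIs were examined for macrophage RNA. This set was chosen after values were seen, and the stromal barcodes without Timd4 below are likewise of both compartments. Both compartments hold no UMI of Tyrobp or Ptprc by their gates, so little macrophage RNA in them was in part fixed beforehand. The values of Tyrobp-positive barcodes below are therefore a description only. The barcodes with at least 3 Timd4 UMIs had no UMI of Adgre1, the F4/80 gene. It had 4, 1 and 0 in the 1082, 281 and 210 stromal barcodes without Timd4, too few for a comparison. The fewer barcodes with at least 3 Timd4 UMIs had 9, 3 and 3 UMIs of Csf1r, against 17, 27 and 4 in those without. They had 42, 5 and 7 of Lyz2, another of the myeloid markers, against 200, 28 and 20. Their myeloid markers other than Tyrobp summed to 402, 204 and 439 CPM, against 171, 89.5 and 220.4 CPM in stromal barcodes without Timd4 and 3535, 1255 and 4178 CPM in Tyrobp-positive barcodes. Their level of Pdpn, which encodes Podoplanin, was 106, 122 and 93.8 CPM, against 115, 94.1 and 69.4 CPM in those without. Barcodes with Timd4 were also deeper, with medians of 8950, 20962 and 9633 UMIs against 4228, 13489 and 5283. The part of depth and of macrophage RNA in the Timd4 level was not tested.

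**Figure D2:**
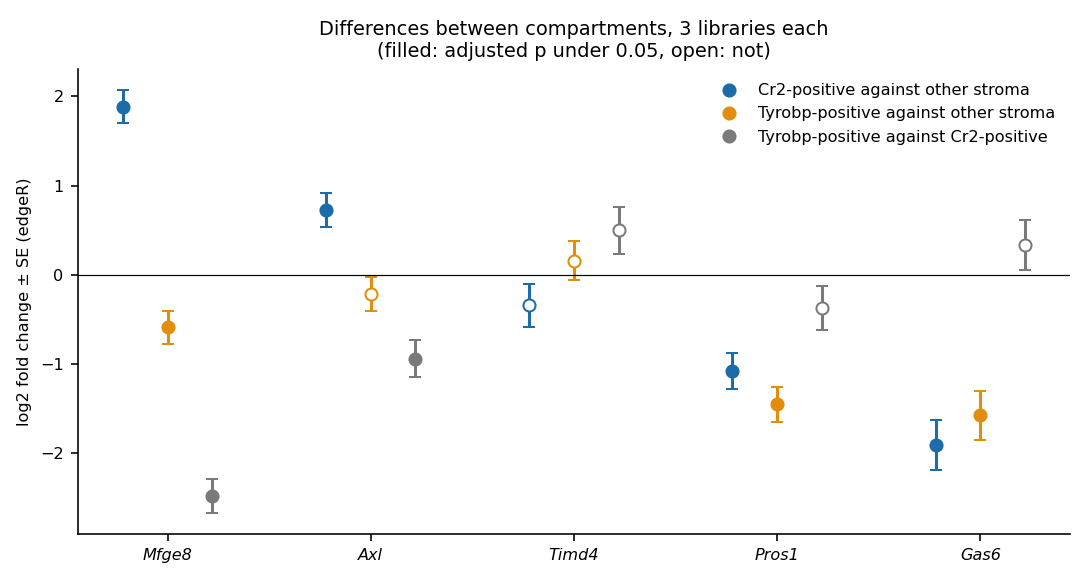
Log2 fold changes of the 5 tested members (points, vertical axis) with their SE (lines) in 3 comparisons of compartments, from 1 edgeR fit of 9 sums (3 libraries each), filled where the adjusted p was under 0.05. Mfge8 stood at 1.89 in Cr2-positive against other stroma and at -2.47 in Tyrobp-positive against Cr2-positive barcodes, and all Timd4 points are open.

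Tyrobp-positive barcodes were compared with both stromal compartments. Among all genes tested, 14.8% were called higher and 16.2% lower in Tyrobp-positive than in other stromal barcodes, and of the 5 tested members none was higher and Mfge8, Gas6 and Pros1 were lower. Against Cr2-positive barcodes 13.5% of genes were called higher and 12.4% lower, and of the members none was higher and Mfge8 and Axl were lower. These comparisons share their sums with the comparison above and are not independent of it.

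Mfge8 was at 2401, 2428 and 1355 CPM in Tyrobp-positive barcodes. It lay below Cr2-positive barcodes in each library (-2.47 ± 0.19, adjusted p = 1.322e-07, edgeR). Against other stroma it was lower in the 1-IC library and 2-IC replicate 1 but not in 2-IC replicate 2, where the groups were at 2428 and 2304 CPM. Over the 3 libraries the log2 fold change was -0.59 ± 0.18 (adjusted p = 0.02284, edgeR). This call was lost without the 1-IC library (-0.27, adjusted p = 0.2136), without 2-IC replicate 1 (-0.58, adjusted p = 0.169), without the library block (-0.63, adjusted p = 0.28), without the contaminant filter (-0.27, adjusted p = 0.4089), with thinning to 1000 UMIs (-0.64, adjusted p = 0.07495) and in DESeq2 (-0.54, adjusted p = 0.09966).

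Gas6 was at 412, 389 and 248 CPM in Tyrobp-positive barcodes, below other stroma in each library (-1.57 ± 0.27, adjusted p = 0.000358, edgeR). Pros1, at 38.5, 51.4 and 12.6 CPM, was likewise lower (-1.45 ± 0.20, adjusted p = 3.132e-05, edgeR). Axl was at 91.7, 92.2 and 33.6 CPM and overlapped the other stroma (-0.21 ± 0.19, adjusted p = 0.4492, edgeR). Against Cr2-positive barcodes Axl was lower (-0.94 ± 0.21, adjusted p = 0.003426, edgeR), a call lost without the contaminant filter (-0.083, adjusted p = 0.8935), without the library block (-0.98, adjusted p = 0.05399), with at least 3 Tyrobp UMIs (-0.88, adjusted p = 0.1069) and with thinning to 1000 UMIs (-0.69, adjusted p = 0.4212). Between the same groups Gas6 (0.34 ± 0.28, adjusted p = 0.431, edgeR) and Pros1 (-0.37 ± 0.25, adjusted p = 0.3023, edgeR) did not pass the test. Each stayed uncalled under 15 of 18 alternatives of gates and processing and was called under the others. Over these alternatives Gas6 ran from -3.11 to 1.37 and Pros1 from -3.08 to 0.32.

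Many Tyrobp-positive barcodes carried stromal RNA, and Mfge8, Gas6, Axl and Timd4 were higher in those that did. Of the 202, 44 and 45 barcodes, 97, 19 and 36 had under 0.2% of their UMIs from Col1a1, Col1a2, Col3a1 and Dcn, genes of the collagen matrix. Mfge8 was at 164, 858 and 213 CPM in these and at 4360.1, 3222 and 3482 CPM in the rest, near or above the other stroma. In the 1-IC library and 2-IC replicate 1 the matrix-poor barcodes were below the B cell barcodes in Mfge8. Gas6 was at 34.0, 59.1 and 0 CPM in the matrix-poor against 743, 555 and 708 CPM in the rest. Timd4 was at 30.1, 34.7 and 19.3 CPM against 179, 107 and 312 CPM, and Axl at 26.2, 27.8 and 12.9 CPM against 149, 125 and 72.0 CPM.

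With only the matrix-poor Tyrobp-positive barcodes in the fit, all 5 tested members were called lower than in other stroma, where 25.9% of all genes tested were called lower and 20.6% higher. Choosing these barcodes by matrix genes takes out those with much stromal RNA, so the comparison is by construction one of barcodes with little of it. The matrix-poor barcodes also carried 612 to 3921 CPM of B cell markers, against 441 to 2191 CPM in all Tyrobp-positive barcodes. They had 2822 to 5106 CPM of the myeloid markers other than Tyrobp. They are not a single cell type, and the part of B cell RNA in the lower levels was not tested. Timd4 turned to -1.56 ± 0.38 (adjusted p = 0.003494, edgeR) and Axl to -1.80 ± 0.28 (adjusted p = 9.319e-05, edgeR), neither of which was called with all Tyrobp-positive barcodes. Mfge8 was at -2.98 ± 0.47 (adjusted p = 8.923e-05, edgeR). Requiring at least 3 Tyrobp UMIs as well gave -1.26 for Timd4 (adjusted p = 0.01455, edgeR) and -4.33 for Mfge8 (adjusted p = 8.001e-10, edgeR), in barcodes with 374 to 1480 CPM of B cell markers. Mertk had 3, 2 and 2 UMIs in the matrix-poor barcodes and 3, 1 and 0 in the other Tyrobp-positive ones, too few for a comparison.

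**Figure D3:**
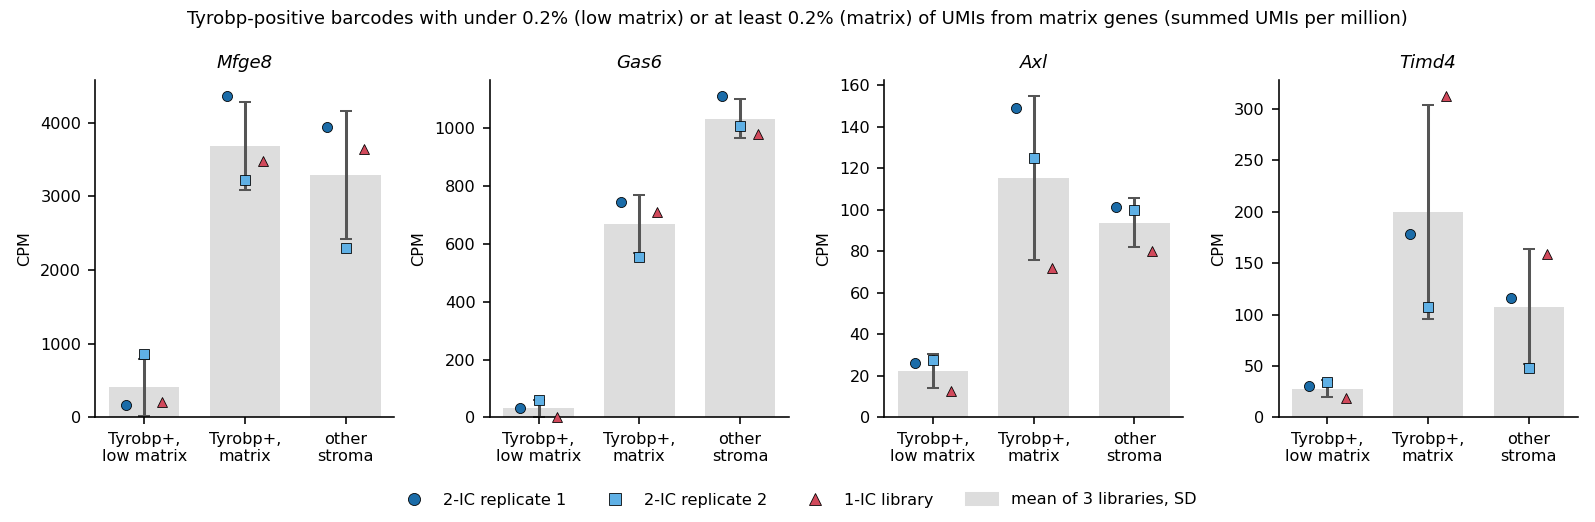
Mfge8, Gas6, Axl and Timd4 in CPM of summed UMIs (vertical axes, linear, from 0) in Tyrobp-positive (Tyrobp+) barcodes with under 0.2% (low matrix) or at least 0.2% (matrix) of UMIs from 4 matrix genes, and in other stroma. Points are the 3 libraries, bars their mean and lines the SD. For each gene, the 3 matrix-poor points lie below the 3 points of the other Tyrobp-positive barcodes.

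Among the other stroma, barcodes were sorted by genes named for regions of the LN: Madcam1 (50, 13 and 17 barcodes), Fmod with Ccl21a (169, 72 and 22), Inmt (698, 182 and 123) and Tnfsf11 (99, 17 and 30), each without the genes before it, and the rest (300, 55 and 66). Levels over these gates are described without a test, and neighbours are said to differ where their means lie further apart than the larger SD. The gates use single UMIs, so they depend on depth, and the rest had the lowest median of UMIs in each library.

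The gates differed in Mfge8, which is given from the highest to the lowest mean. It was at 12414 ± 2633 CPM (SD, n = 3) in Cr2-positive barcodes, 8875 ± 2459 in the Madcam1 gate, 5801 ± 2049 in the Tnfsf11 gate, 3631 ± 575 in the Fmod Ccl21a gate, 3586 ± 1009.7 in the rest and 2055 ± 605 in the Inmt gate. Neighbours differed by this rule at each step except between the Fmod Ccl21a gate and the rest. Within each library, too, the Cr2-positive barcodes were highest, then the Madcam1, Tnfsf11 and Fmod Ccl21a gates, and the Inmt gate was lowest. The Madcam1 gate, without a UMI of Cr2, had 10944, 6157 and 9526 CPM.

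Gas6 was highest in the Fmod Ccl21a gate, with 1367, 1399 and 1325 CPM and a mean of 1364 ± 37.0. It was at 1116 ± 187 CPM in the Inmt gate, 858 ± 207 in the rest, 498 ± 142 in the Tnfsf11 gate, 310.5 ± 227 in Cr2-positive barcodes and 299 ± 164 in the Madcam1 gate. The last 3 did not differ between neighbours by more than the larger SD. Over the 18 sums of 6 groups in 3 libraries, which share libraries and depth, Pearson's r of log2 CPM between Gas6 and Mfge8 was -0.73, given as a description.

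Axl was at 160.0 ± 18.4 CPM in Cr2-positive barcodes and 155 ± 40.2 in the Madcam1 gate, which did not differ, and between 87.9 ± 18.9 and 100.5 ± 34.9 in the others. Pros1 was highest in the Inmt gate (118 ± 16.5) and lowest in Cr2-positive barcodes (49.6 ± 13.1). Timd4 was at 368, 43.5 and 287 CPM in the Madcam1 gate and at 205, 20.3 and 308 CPM in the Tnfsf11 gate. In both gates 2-IC replicate 2 was the low library, with 8 and 5 UMIs. Timd4 was at 70.4, 80.8 and 66.8 CPM in the Fmod Ccl21a gate, where the libraries lay close together, so that no order of the gates held in all libraries.

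**Figure D4:**
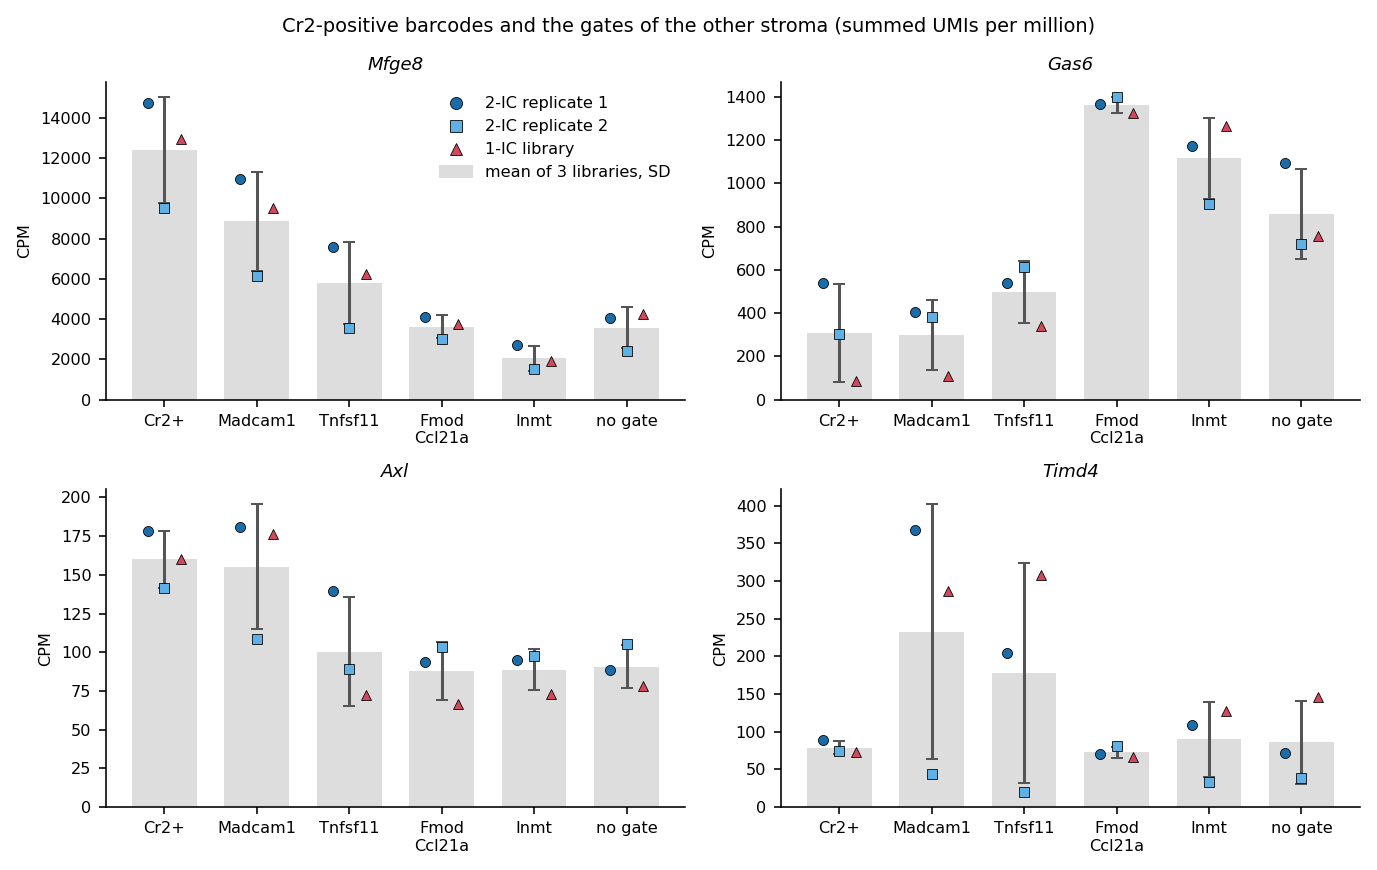
Mfge8, Gas6, Axl and Timd4 in CPM of summed UMIs (vertical axes, linear, from 0) in Cr2-positive (Cr2+) barcodes and in 5 gates of the other stroma, named by the gene that defines each. Points are the 3 libraries, bars their mean and lines the SD. Mfge8 descends from Cr2-positive barcodes to the Inmt gate, Gas6 is highest in the Fmod Ccl21a gate, and the Timd4 points of 2-IC replicate 2 are low in the Madcam1 and Tnfsf11 gates.

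The genes most like Mfge8 over the same 18 sums, among 2981 genes with a mean of at least 50 CPM, were Clu (r = 0.93), Bst1 (r = 0.92), Serpina1b (r = 0.89), Parm1 (r = 0.89) and Il4i1 (r = 0.89). Clu, which encodes clusterin, ran from a mean of 17533 CPM in Cr2-positive barcodes to 3459 CPM in the Inmt gate. Il4i1, an amino acid oxidase, ran from 426 to 10.0 CPM between the same groups. Among the members Axl had an r of 0.74 to Mfge8, Timd4 0.44, Pros1 -0.64 and Gas6 -0.73.

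The 1-IC library was set beside the 2-IC libraries without a test, since it was alone in its condition. Mfge8 in Cr2-positive barcodes, at 12968 CPM, lay between the 2-IC libraries. Gas6 in Cr2-positive barcodes was at 86.5 CPM (95% exact Poisson interval 57.0 to 126, counting error only) against 540.4 (489.8 to 595) and 305 (254 to 362) CPM. It was lowest in that library in the Madcam1 gate as well, at 111 CPM against 406 and 381, while in other stroma it was at 980.3 against 1109 and 1007 CPM. At 1000 UMIs Gas6 was seen in 1 of 45 Cr2-positive barcodes of the 1-IC library against 29 of 125 and 7 of 35 in the 2-IC libraries. The condition cannot be told apart from the library.

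Lists of related genes were counted in the same fit, in which the median log2 fold change of all genes tested was -0.047 for Cr2-positive and -0.048 for Tyrobp-positive against other stroma. Of 8 other bridging molecules 7 were tested. Thbs1, which encodes thrombospondin, was lower in Cr2-positive barcodes than in other stroma (-1.60 ± 0.28, adjusted p = 0.0005829, edgeR), but its level in other stroma ranged from 90.6 to 855 CPM between libraries. Anxa1, which encodes an annexin that binds phosphatidylserine, was lower as well (-0.88 ± 0.20, adjusted p = 0.003946, edgeR). Both were also called lower in Tyrobp-positive barcodes than in other stroma. Anxa5 was at 247 ± 16.0 CPM (SD, n = 3) in Cr2-positive barcodes and 309.8 ± 16.7 CPM in other stroma and did not pass the test (adjusted p = 0.1169). The other tested genes, Lgals3 and, named after their values were seen, the complement C1q chains C1qa, C1qb and C1qc, had at most 5.34 CPM in any Cr2-positive or other stromal sum. They passed the filter through the Tyrobp-positive sums, where they had to be higher, so their values are a description and the list is given no count or median. C1qa, part of the C1q complex that bridges dying cells to phagocytes, was at 154, 126 and 399 CPM in Tyrobp-positive barcodes, and Lgals3, which encodes galectin-3, at 284, 167 and 214 CPM.

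Of 17 other receptors 5 were tested, and 1 was higher and 2 lower in Cr2-positive barcodes than in other stroma (list median -0.45). Over all genes tested 8.97% were higher and 9.29% lower. Itgav, the alpha v integrin chain that MFGE8 binds, was at 157 ± 42.6 CPM (SD, n = 3) in Cr2-positive barcodes against 44.6 ± 19.5 CPM in other stroma. It was the receptor called higher there (1.76 ± 0.20, adjusted p = 1.025e-05, edgeR), and it was lower in Tyrobp-positive than in Cr2-positive barcodes (-1.73 ± 0.24, adjusted p = 3.859e-05, edgeR). Its partner Itgb5, named after its values were seen, was lower in Cr2-positive barcodes (-1.43 ± 0.38, adjusted p = 0.01446, edgeR), and Itgb3, another partner, had at most 5 UMIs in a sum and was not tested. Lrp1, a large endocytic receptor that takes part in uptake of calreticulin-bearing cells, was lower (-1.78 ± 0.24, adjusted p = 5.976e-05, edgeR). Cd14 (adjusted p = 0.2184) and Scarb1 (adjusted p = 0.6338), both of which bind phosphatidylserine, did not pass. In Tyrobp-positive against other stroma 0 of the 5 were called higher and Lrp1 was lower (-1.46 ± 0.23, adjusted p = 0.0001727, edgeR). There 14.8% of all genes tested were higher and 16.2% lower. The 12 untested receptors include some seen mainly in Tyrobp-positive barcodes, named after their values were seen. The scavenger receptor genes Cd36 and Msr1 had 40, 14 and 1 and 29, 12 and 0 UMIs there against 2, 0 and 0 and 1, 1 and 0 in other stroma. Havcr2, which encodes TIM-3, had 7, 29 and 2 against 2, 1 and 0, and Cd300lf had 19, 3 and 1 against 2, 0 and 0.

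All 10 genes of the engulfment machinery were tested, and 1 was called higher in Cr2-positive barcodes than in other stroma, Rhog (0.63 ± 0.21, adjusted p = 0.0436, edgeR), a small GTPase upstream of Rac, and none lower (list median -0.37). Among all genes tested 8.97% were higher and 9.29% lower. A count of 1 in 10 is near that share and is no result about the list. In Tyrobp-positive barcodes 3 were higher than in other stroma and 4 lower (list median -0.25), where 14.8% of all genes tested were higher and 16.2% lower. Rac1, which drives the actin cup, was higher (0.47 ± 0.15, adjusted p = 0.02763, edgeR), as was Rhog (1.35 ± 0.18, adjusted p = 2.833e-05, edgeR), while the lipid exporter Abca1 (-0.90 ± 0.19, adjusted p = 0.001687, edgeR) and the exchange factor Dock1 (-0.77 ± 0.23, adjusted p = 0.01823, edgeR) were lower. The others called, named after their values were seen, were Elmo1, higher, and Crk and Gulp1, lower.

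Of 6 genes for lipid exposure and for signals that permit or block uptake 5 were tested, and Sirpa alone among them was called, higher in Cr2-positive (1.83 ± 0.20, adjusted p = 5.159e-06, edgeR) and in Tyrobp-positive barcodes (1.58 ± 0.19, adjusted p = 7.715e-06, edgeR) than in other stroma. The list medians were 0.032 and -0.17, and 8.97% and 14.8% of all genes tested were called higher in these comparisons. SIRPA is the inhibitory receptor for CD47. Sirpa was at 86.4 ± 18.7 CPM in Cr2-positive barcodes and 22.8 ± 4.9 CPM in other stroma. Cd47 was at 611 ± 56.6 against 537 ± 8.1 CPM (adjusted p = 0.5389), and Calr and Tmem30a did not pass either. GAS6 and protein S need vitamin K-dependent carboxylation. Of its 3 genes Vkorc1, the vitamin K epoxide reductase, was lower in Cr2-positive barcodes (-0.75 ± 0.21, adjusted p = 0.01719, edgeR), and Ggcx and Vkorc1l1 were not called (list median -0.72). In Tyrobp-positive barcodes Vkorc1 (-0.90 ± 0.20, adjusted p = 0.002666, edgeR) and Ggcx (-1.72 ± 0.38, adjusted p = 0.002371, edgeR), the carboxylase, were lower than in other stroma (list median -0.90). Of all genes tested 9.29% were lower in Cr2-positive and 16.2% in Tyrobp-positive barcodes than in other stroma. Against Cr2-positive barcodes the Tyrobp-positive ones had 0 higher and 1 lower of the tested receptors, 2 and 0 of the engulfment genes, and 0 called of the last 2 lists. In that comparison 13.5% of all genes tested were higher and 12.4% lower.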

How the data were processed

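Sorted cells were run on the 10x Genomics Chromium 3′ kit. Alignment and UMI counting were done by the authors with Cell Ranger (5.0.0 in the file header, another version in their methods) on GRCm38 with the Ensembl release given in their methods, and deposited raw counts per gene and barcode for barcodes kept as cells; whether the counting used strand is not given in the sources used here. The libraries were grouped by their titles, because the short descriptions of the 2-IC libraries conflict. The members and gene lists were chosen with earlier results of these data known.

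UMIs were summed per library and compartment, as barcodes of a library are not replicates, and given as CPM of the sum. The 9 sums, each of at least 5 barcodes, were fitted with edgeR 4.0.16 in R 4.3.3 (TMM, filterByExpr, quasi-likelihood test, library as a block, since sums from 1 library share a suspension, Benjamini-Hochberg adjusted p under 0.05). The gate genes and the 13 contaminant genes (Cd3d, Cd79a, Cd79b, Cldn5, Egfl7, Hba-a1, Hba-a2, Krt18, Ly6c1, Lyve1, Ptprc, S100b and Trac) were kept out of the tests. The tests were tried on simulated data. With 3 libraries an exact permutation test cannot reach 0.05. Thinning drew 1000 UMIs per barcode without replacement. Named genes were the members, the up to 4 genes with the highest mean CPM of each list, and the 5 genes most like Mfge8 by Pearson's r of log2(CPM + 1). Scrublet (scanpy 1.11.5) called 3, 3 and 7 doublets (0.0798%, 0.294% and 1.05% of the barcodes). In the 2-IC libraries that is under 0.5%, the caller was taken not to have worked, and no doublets were removed in the main fit. Intervals are exact (95%, Poisson or binomial) and cover counting error only, and a count of 0 was taken to allow 3 counts. Motifs were searched on both strands of RefSeq promoters. Alternatives were other size factors, no filter, no block, DESeq2 1.42.0, other gates, thinning, removal of the Scrublet doublets and each library left out. Leaving out shared barcodes, a stricter Tyrobp gate and a Malat1 limit were added after seeing the data.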

Additional observations from a re-analysis of the deposited data

Results flagged for a closer look

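Mertk in Tyrobp-positive barcodes against other stroma moved in opposite directions in the conditions. The log2 ratio of CPM was -0.15 and -0.19 in replicates 1 and 2 of the 2-IC condition and 1.78 in the 1-IC library. The difference was not tested, and the value of the 1-IC library rests on 2 UMIs of Mertk in Tyrobp-positive barcodes and 4 in other stroma, with a 95% exact Poisson interval of 1.02 to 30.3 CPM around 8.39 CPM in the former.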

How the results depend on the processing

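Of 245 recomputed fold changes of members, 218 kept their side of the threshold, and kept their direction where they passed it. Mfge8 and Gas6 in Cr2-positive against other stroma kept both under all 15 alternatives (1.32 to 2.07 and -2.93 to -1.35). Removal of the few Scrublet doublets is 1 of these alternatives and gave 15 of the 218, and it could change little. A change of direction below the threshold was not counted. Timd4 in Cr2-positive against other stroma, called under none of its alternatives, ran from -0.70 to 0.0046. Without the replicate block, that is, without library as a term, 694, 1048 and 1240 genes were called in Cr2-positive against other stroma, Tyrobp-positive against other stroma and Tyrobp-positive against Cr2-positive, where 1653, 2800 and 2353 were called with it, and Mfge8 in Tyrobp-positive against other stroma was at -0.63. Thinned to 1000 UMIs the counts were 346, 591 and 421, with Mfge8 in Tyrobp-positive against other stroma at -0.64. Without the contaminant filter the Tyrobp-positive comparisons with other stroma and with Cr2-positive barcodes gave 1749 and 695 genes. Mfge8 was at -0.27 in the former, and Axl in Cr2-positive against other stroma, at -0.030, was no longer called (adjusted p = 0.9453, edgeR). In DESeq2 Mfge8 in Tyrobp-positive against other stroma was at -0.54. With matrix-poor Tyrobp-positive barcodes 3740 genes were called against Cr2-positive ones, Timd4 reversed to -1.56 against other stroma and -1.24 against Cr2-positive, and Gas6 to -3.00 against Cr2-positive. With at least 3 Tyrobp UMIs as well Timd4 was at -1.26 against other stroma and Gas6 at -3.11 against Cr2-positive. Leaving out each library gave 907 to 1334, 1255 to 2669 and 1285 to 2164 genes and Mfge8 in Tyrobp-positive against other stroma at -0.91 to -0.27. The lowest count of each came without 2-IC replicate 1, and each such fit held fewer sums. Unthinned, Mfge8 was seen in 99.5%, 94.2% and 66.7% of Cr2-positive, other stromal and Tyrobp-positive barcodes, where thinning gave 93.5%, 72.0% and 43.2%. The cause of the other changes was not tested. Depth limits Mertk and Tyro3, and 1 library limits the 1-IC condition.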

Other observations

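Barcodes with UMIs of both Cr2 and Tyrobp (52, 15 and 14) entered no comparison. They had 5335, 3481 and 3485 CPM of Mfge8, between the Cr2-positive and the Tyrobp-positive compartments in each library, and 175, 57.1 and 196 CPM of Gas6. No UMI of Mertk or Tyro3 was found in them.

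Barcodes with a UMI of a contaminant gene and no Tyrobp were also left out. The 298, 98 and 64 of them with Cr2 had 4814, 3552 and 2839.7 CPM of Mfge8, 382, 323 and 334 CPM of Gas6 and 73.8, 45.8 and 83.5 CPM of Timd4. A single barcode of 2-IC replicate 1 held 44 of the 172 Timd4 UMIs of that group. The 1132, 225 and 196 without Cr2 had 1972, 1752 and 1404 CPM of Mfge8 and 547, 538 and 319 CPM of Gas6.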
